A study of Homo sapiens with 9 samples.

Results

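The genes described here are the epidermal differentiation complex and the S100 genes beside it on human chromosome 1. Members were the protein-coding genes of chromosome 1 in GENCODE 44 mapped to GRCh37 (hg19) that belong by symbol to the S100A, SPRR or LCE families, or that are FLG, FLG2, IVL, LORICRIN, TCHH, RPTN, HRNR or CRNN. This rule gave 54 of 20136 protein-coding genes, of the 2092 on chromosome 1: 16 S100 genes, 6 filaggrin-type genes, 19 LCE genes, 11 SPRR genes, and IVL with LORICRIN. They lie in one stretch of 1.65 Mb, chr1:151955391-153604515, with 9 other protein-coding genes between them. Most are small, with a median body of 1.919 kb (range 0.27 to 23.075 kb) and 40 of at most 5 kb.

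The data are ChIP-seq of BEAS-2B, an immortalized line of human bronchial epithelial cells, labelled as tissue of lung, bronchus. The KO cells carry the genotype mdig/mina53 KO after CRISPR-Cas9 editing and blasticidin selection, and the WT cells went through the same procedure and kept normal mdig protein. Both were grown in DMEM with serum and blasticidin, and the sources used here do not state how many edited colonies went into the ChIP-seq. Each genotype had 1 library for each of 4 histone marks: H3K4me3, found at active promoters, H3K27me3, laid down by Polycomb over silent genes, H3K9me3, typical of heterochromatin, and H3R8me2a, an arginine mark. One WT input library brought the series to 9 libraries and had no islands of its own. Islands, the enriched stretches called in each library by SICER, were deposited as positions with no height or read count. The depth behind an island is therefore unknown. With 1 library per mark and genotype no difference below has a replicate or a test, and each is given as a size only.

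The members build the outer barrier of skin and other stratified epithelia. Involucrin, loricrin and the SPRR and LCE proteins are cross-linked by transglutaminases into the cornified envelope, filaggrin and its relatives bind keratin filaments or fill the envelope, and S100 proteins are calcium-binding signalling and antimicrobial proteins. In cells that do not form a cornified layer most of these genes are kept silent, while some S100 genes are used widely.

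Promoter sequences show how unlike the members are at their starts. The 250 bases upstream of the canonical transcript start were read from GRCh37, and 7 are printed 5′ to 3′ as examples, chosen by the marks their genes held. TCHH carried 3 marks, LCE3D and LCE3E held H3K27me3 at the promoter in KO cells alone, SPRR2B held it there in WT cells alone and SPRR2G in KO cells alone, and S100A10 and S100A2 held H3K4me3 in both. Capitals mark TATAAA, the letters of a TATA box, and TGANTCA, with any base at N, a loose form of the AP-1 site. The stricter AP-1 site has C or G at N, as in S100A2 but not in TCHH or SPRR2G, and was not counted apart. All 7 genes are on the minus strand, and no annotated exon overlaps the printed bases. They lie at chr1:152087921-152088170 (TCHH), chr1:152552993-152553242 (LCE3D), chr1:152539257-152539506 (LCE3E), chr1:153044088-153044337 (SPRR2B), chr1:153123367-153123616 (SPRR2G), chr1:151966336-151966585 (S100A10) and chr1:153538321-153538570 (S100A2).
TCHH: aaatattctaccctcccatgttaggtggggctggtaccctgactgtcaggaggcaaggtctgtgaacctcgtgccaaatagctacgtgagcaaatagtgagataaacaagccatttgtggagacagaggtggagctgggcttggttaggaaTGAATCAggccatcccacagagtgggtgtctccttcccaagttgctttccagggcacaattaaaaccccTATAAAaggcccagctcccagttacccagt
LCE3D: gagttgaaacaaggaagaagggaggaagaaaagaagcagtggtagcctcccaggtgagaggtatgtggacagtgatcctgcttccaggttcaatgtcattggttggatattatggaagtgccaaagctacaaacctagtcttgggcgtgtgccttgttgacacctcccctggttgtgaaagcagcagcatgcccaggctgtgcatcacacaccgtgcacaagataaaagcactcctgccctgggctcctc
LCE3E: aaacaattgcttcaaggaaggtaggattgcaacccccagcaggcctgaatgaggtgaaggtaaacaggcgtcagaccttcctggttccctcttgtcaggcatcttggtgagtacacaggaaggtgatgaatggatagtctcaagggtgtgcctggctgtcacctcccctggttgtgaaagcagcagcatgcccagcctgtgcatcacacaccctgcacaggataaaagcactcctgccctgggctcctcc
SPRR2B: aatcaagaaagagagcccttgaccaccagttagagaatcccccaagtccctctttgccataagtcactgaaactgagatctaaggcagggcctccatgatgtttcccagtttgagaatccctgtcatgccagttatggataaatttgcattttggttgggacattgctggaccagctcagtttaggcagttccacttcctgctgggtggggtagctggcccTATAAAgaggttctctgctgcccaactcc
SPRR2G: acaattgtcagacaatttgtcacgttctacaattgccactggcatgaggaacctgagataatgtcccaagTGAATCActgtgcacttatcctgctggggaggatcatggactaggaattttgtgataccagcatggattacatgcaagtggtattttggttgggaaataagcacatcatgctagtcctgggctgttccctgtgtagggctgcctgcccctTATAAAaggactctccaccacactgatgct
S100A10: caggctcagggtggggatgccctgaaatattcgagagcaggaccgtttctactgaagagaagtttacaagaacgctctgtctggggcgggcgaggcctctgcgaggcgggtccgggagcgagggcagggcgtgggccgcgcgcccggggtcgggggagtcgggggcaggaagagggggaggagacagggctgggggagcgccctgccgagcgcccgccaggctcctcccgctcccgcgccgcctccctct
S100A2: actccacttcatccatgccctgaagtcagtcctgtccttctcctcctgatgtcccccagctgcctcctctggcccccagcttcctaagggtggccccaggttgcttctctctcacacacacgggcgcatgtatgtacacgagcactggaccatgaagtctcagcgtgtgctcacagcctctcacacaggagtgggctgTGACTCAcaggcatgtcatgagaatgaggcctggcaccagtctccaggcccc

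Counted back from the transcript start, TATAAA begins at position -30 in TCHH and SPRR2G and at -29 in SPRR2B, and TGAATCA begins at -99 in TCHH and -180 in SPRR2G. In S100A2 the TGACTCA begins at position -52, and S100A10 has neither motif. LCE3D and LCE3E have neither and share an identical stretch of 36 bases that begins at -90 in LCE3D and -91 in LCE3E. Over all members, both strands searched, TATAAA was in 32 of 54 promoters (59.3%), against 9.26% of 19854 promoters of the same length. On the coding strand with its first base 28 to 33 bases upstream it was in 28 members (51.9%), against 3.48% of all promoters. TGANTCA was in 19 members (35.2%), against 4.7% of all promoters. The motifs do not overlap each other in the printed promoters, and a match describes letters only and is no sign of binding. The families differed in these letters: TGANTCA was in 8 of 11 SPRR promoters and 5 of 6 filaggrin-type promoters, but in 0 of 19 LCE promoters.

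H3K27me3 covered more of the complex in KO cells than in WT cells. Over the 1.65 Mb, H3K27me3 islands covered 839.4 kb (50.9%) in KO cells, against 542 kb (32.9%) in WT cells, 1.55 times as much. The stretch had the same first base in both libraries, 152025201, which is 4.818 kb past the end of S100A11. Its last base was 153474000 in KO cells and 153458600 in WT cells, which leaves 33.075 kb in KO cells and 48.475 kb in WT cells before S100A6. Both edges thus fell in gaps between genes, beside S100A11 on one side and S100A6 on the other. The number of islands was alike, 48 in KO cells and 50 in WT cells, while their median length was 12.1 kb in KO cells and 7.4 kb in WT cells. The longest was 81.6 kb in KO cells, over S100A9, S100A12 and S100A8, and 37.8 kb in WT cells. Of the WT bases 96.4% also lay under KO islands, and of the KO bases 62.2% lay under WT islands.

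The neighbouring stretches held far less H3K27me3 and showed no such difference in size. In the 1 Mb before the complex H3K27me3 covered 31.6 kb in KO cells and 27.4 kb in WT cells, in 2 islands each. In the 1 Mb after the complex it covered 72.315 kb in KO cells, in 7 islands, and 87.915 kb in WT cells, in 6 islands. Ratios of these stretches thus rest on few islands. The KO to WT ratio was 1.15 before the complex and 0.823 after it, beside 1.31 for chromosome 1 and 1.33 for the genome. Within the complex the ratio was uneven. It was 2.33 from LCE5A to LCE7A and 1.5 from TCHH to CRNN, but 1.32 from IVL to LORICRIN and 1.21 from S100A9 to S100A7. Scaling to the same total length multiplied all KO bases of a mark by its genome-wide WT over KO length, and moved no island. After this scaling the ratio of the complex was 1.16.

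**Figure D1:**
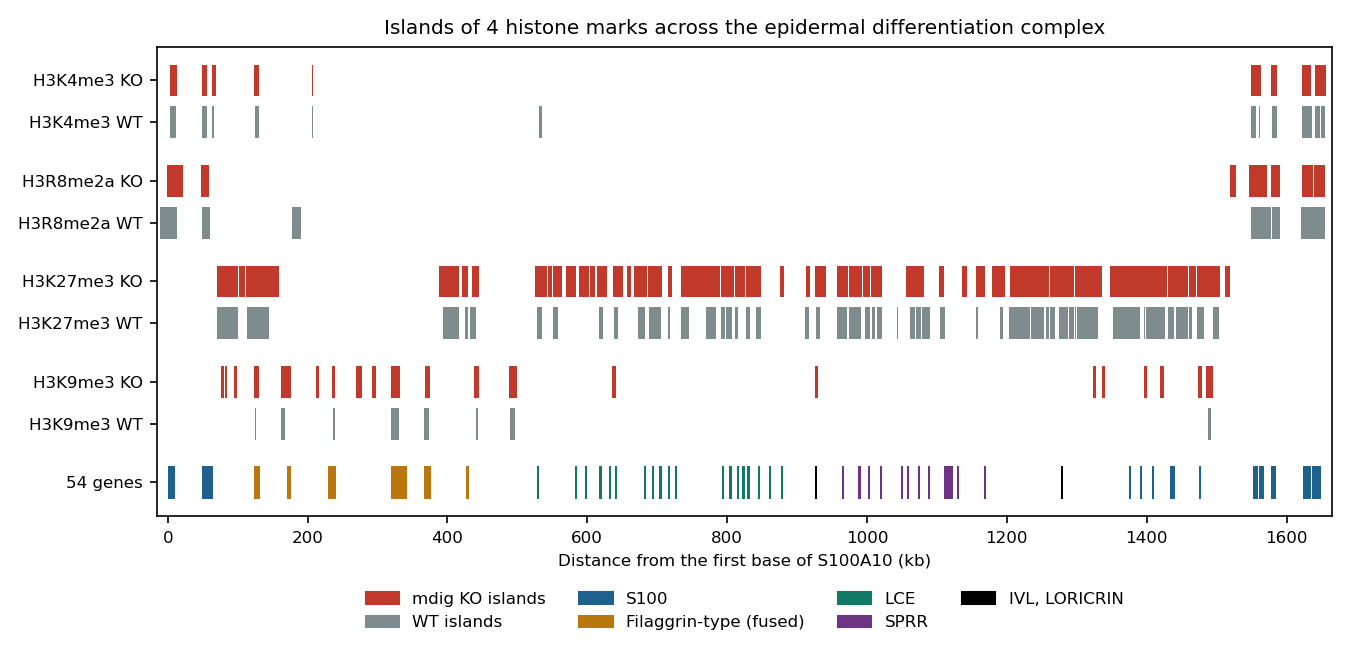
Islands of the 4 marks across the complex, by distance from the first base of S100A10 in kb, with the KO library above the WT library for each mark and the 54 genes coloured by family in the lowest row. H3K27me3 lies in separate islands across the middle in both libraries (839.4 kb in KO cells, 542 kb in WT cells), S100A9 to S100A7 included. The longest gap in both libraries is over RPTN, HRNR, FLG and FLG2. H3K27me3 ends before the outer S100 genes, S100A10 and S100A11 on the left and S100A6 to S100A1 on the right. Most H3K4me3 and H3R8me2a islands lie at these outer genes.

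A gene was valued by its island bases over the body plus 5 kb upstream. Gain means at least 2 times the WT bases and at least 1 kb more in KO cells, and loss means the opposite. For H3K27me3, 11 members had a gain and 3 a loss, which is 20.4% and 5.56% of the 54, beside 6.49% and 3.29% of all genes. Small genes reach the factor at other rates, so genes with a body of at most 5 kb are given too: 11 of the 40 small members (27.5%) had a gain and 2 (5%) a loss, beside 5.85% and 2.53% of 2887 small genes. Members share islands and 7 pairs of their regions overlap, so they are not independent: the 11 gains rest on 13 KO islands and 5 WT islands. Across the 54 members 23 had more bases in KO cells, 5 had fewer and 26 were equal, with 16 of these at 0 in both, and the median difference was 0. Over all genes the median difference was 0 as well, with more bases in KO cells for 18.4% and fewer for 8.34%. After scaling, 8 members had a gain and 4 a loss, because LCE5A, LCE1F and SPRR2D no longer met the gain and CRNN met the loss. Over the gene body alone 7 of the 11 gains remained.

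The LCE genes, which encode late envelope proteins, accounted for 8 of the 11 gains. These are 42.1% of the 19 LCE genes, beside gains in 6.49% of all genes and 5.85% of small genes. The gains not met over the gene body alone were all LCE genes: LCE5A, LCE3B, LCE4A and LCE1F. Over the LCE block H3K27me3 covered 264.05 kb (75.3%) in KO cells, against 113.522 kb (32.4%) in WT cells, 2.33 times as much. The median LCE gene held 5.261 kb in KO cells and 2.162 kb in WT cells, and 14 of 19 held more in KO cells, 1 held less and 4 were equal. H3K27me3 was within 2 kb of the start of 16 of 19 LCE genes in KO cells and 12 in WT cells. Over all members it was at 32 promoters (59.3%) in KO cells and 27 (50%) in WT cells, against 21.4% of all genes in KO cells and 20.3% in WT cells.

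The LCE3 genes, the group known for expression in psoriatic skin, differed within one group. LCE3D held 6.136 kb of H3K27me3, its whole region, in KO cells and 0 kb in WT cells. LCE3E held 2.927 kb in KO cells and 0 kb in WT cells. At both genes a KO island covered the promoter printed above, while the nearest WT island was 18.409 kb from the start of LCE3D and 26.256 kb from that of LCE3E. LCE3B held 2.714 kb in KO cells and 0 kb in WT cells, all of it upstream, since the nearest KO island was 2.287 kb from its start. The other LCE3 genes had islands in both libraries: LCE3C held 3.962 kb in KO cells and 2.162 kb in WT cells, and LCE3A held 5.27 kb in KO cells and 3.691 kb in WT cells.

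Gains elsewhere among the LCE genes were of the same kind. LCE7A held 3.328 kb of H3K27me3 in KO cells and 0 kb in WT cells, where the nearest island was 29.272 kb away. LCE4A held 1.565 kb in KO cells and 0 kb in WT cells, with the KO island still 3.436 kb from its start. LCE1C held 5.62 kb in KO cells and 1.327 kb in WT cells, and LCE1F held 5.485 kb in KO cells and 2.3 kb in WT cells. In LCE5A, the first gene of the block, the values were 3.453 kb in KO cells and 1.453 kb in WT cells. LCE1E and LCE2D were covered over their whole regions in both libraries, with 7.213 kb and 6.28 kb, and LCE6A, between LCE1A and LCE7A, had no H3K27me3 in either. LCE2C, LCE1D, LCE1B and LCE1A held 4.938 to 6.291 kb in KO cells and 2.784 to 4.845 kb in WT cells, each more in KO cells, and LCE2A held 1.718 kb in both. LCE2B was the one LCE gene with less in KO cells, 5.673 kb against 6.275 kb in WT cells.

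**Figure D2:**
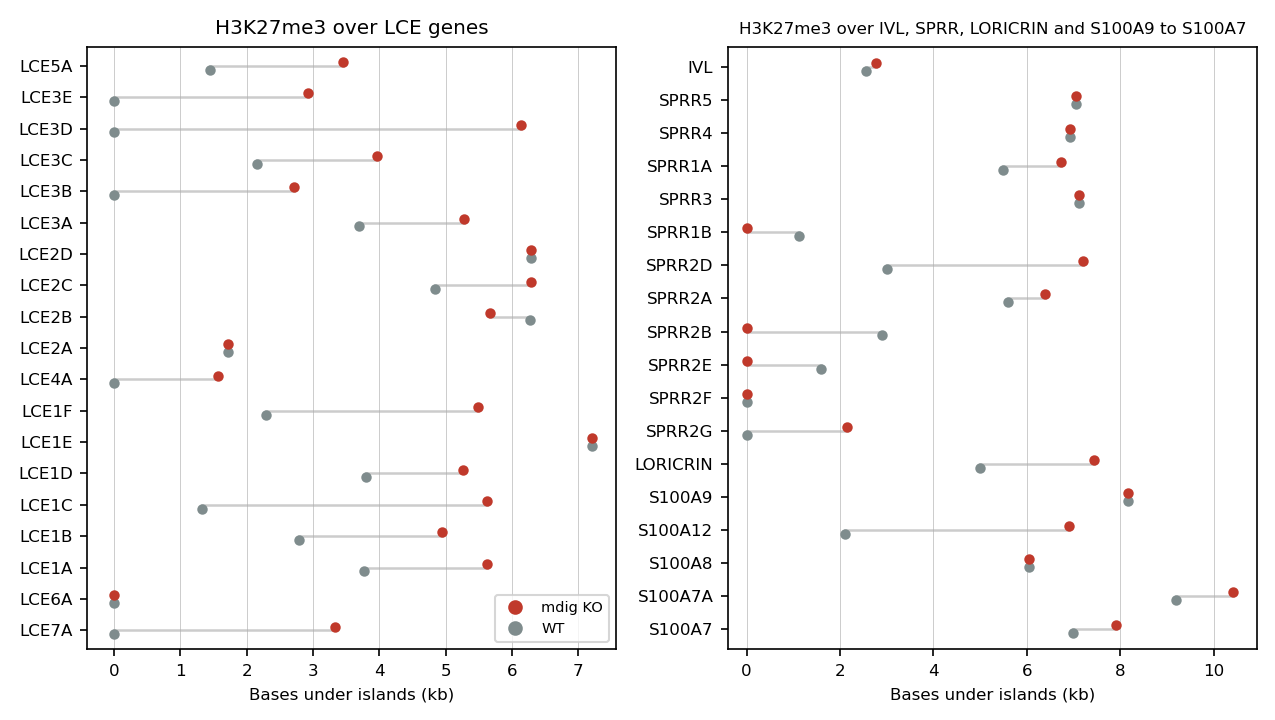
Bases under H3K27me3 islands in kb for each LCE gene and for IVL, the SPRR genes, LORICRIN and S100A9 to S100A7, with mdig KO in red and WT in grey, 1 library each, and genes in chromosome order from the top. LCE3E, LCE3D, LCE3B, LCE4A, LCE7A and SPRR2G sit at 0 in WT cells and above 1 kb in KO cells, and SPRR1B, SPRR2B and SPRR2E show the opposite.

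The SPRR genes, which encode small proline-rich bridging proteins of the envelope, divided. All 3 H3K27me3 losses among the members were SPRR genes, beside 2 gains. These are 27.3% and 18.2% of the 11 SPRR genes, beside losses in 3.29% and gains in 6.49% of all genes. In each library 7 SPRR promoters held H3K27me3, 6 of them the same. SPRR2B held 0 kb in KO cells and 2.899 kb in WT cells, where an island covered its start, and the nearest KO island was 7.487 kb away. SPRR2E held 0 kb in KO cells and 1.59 kb in WT cells, where the island covered its canonical transcript from end to end. SPRR1B held 0 kb in KO cells and 1.122 kb in WT cells, and both genes were near the 1 kb limit of the rule. The WT bases of SPRR1B were all upstream, 3.879 kb from its start, and its loss was not met over the gene body alone. In contrast SPRR2G held 2.143 kb in KO cells and 0 kb in WT cells, and SPRR2D held 7.2 kb, its whole region, in KO cells and 3.007 kb in WT cells. SPRR5, SPRR4 and SPRR3 were covered throughout in both libraries, and SPRR2F had no H3K27me3 in either. SPRR1A held 6.734 kb in KO cells and 5.49 kb in WT cells, and SPRR2A held 6.393 kb in KO cells and 5.593 kb in WT cells. SPRR2 and LCE genes have near copies, and reads of 75 bases cannot be placed where the same letters occur again: the share of 75-base words found more than once in the complex was 5.89% for the SPRR2B region, 4% for SPRR2E, 3.19% for SPRR2A, 1.62% for SPRR2D, 0.285% for SPRR2G and 0% for SPRR1B. Among the LCE genes with a gain it was 5.17% for LCE1F and at most 0.865% for the other 7, and it reached 6.87% in LCE2C, which had no gain. Copies outside the complex were not counted, and the part of repeated words in the differences was not tested.

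IVL, the involucrin gene, and LORICRIN, which encodes the most abundant envelope protein, held H3K27me3 near their starts in both libraries. LORICRIN held 7.438 kb in KO cells, its whole region, and 5 kb in WT cells, and IVL held 2.762 kb in KO cells and 2.562 kb in WT cells.

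Among S100 genes the inflammatory subgroup from S100A9 to S100A7 lay inside the H3K27me3 stretch. H3K27me3 covered 97.798 kb (95.1%) of this block in KO cells and 80.598 kb (78.4%) in WT cells. S100A8 and S100A9, the subunits of calprotectin, were covered over their whole regions in both libraries, with 6.042 kb and 8.17 kb. S100A12, a related calgranulin, met the gain, with 6.911 kb in KO cells and 2.097 kb in WT cells. A KO island covered its start, and the nearest WT island was 2.697 kb from it. S100A7, the psoriasin gene, held 7.908 kb in KO cells and 6.981 kb in WT cells, and its near copy S100A7A held 10.405 kb in KO cells and 9.2 kb in WT cells.

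The other 11 S100 genes lay outside the stretch, and all of them but S100A3 held H3K4me3. H3K4me3 was within 2 kb of the gene start at 10 of 54 members (18.5%) in KO cells and 9 (16.7%) in WT cells, against 64.4% of all genes in KO cells and 64.7% in WT cells. The 9 shared ones were S100 genes. In the GENCODE models some members begin with a longer transcript than the canonical one, among them S100A11, S100A4, SPRR2D and SPRR2E. For SPRR2D and SPRR2E the choice of start changed the H3K27me3 state of the promoter in WT cells. Counted at the start of the canonical transcript, a choice made after the data were seen, the members with H3K4me3 were 11 in KO cells and 10 in WT cells. These 10 were S100A10, S100A11, S100A6, S100A5, S100A4, S100A2, S100A16, S100A14, S100A13 and S100A1.

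At the left edge, S100A10, the annexin A2 partner, held 10.8 kb of H3K4me3 in KO cells and 9 kb in WT cells. S100A11, an annexin A1 partner, held 12.419 kb in KO cells and 8.4 kb in WT cells. Neither had H3K9me3, and H3K27me3 touched only 0.183 kb upstream of S100A11 in both libraries.

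At the right edge, S100A5 had the one H3K4me3 gain, with 8.978 kb in KO cells and 4.378 kb in WT cells, where KO cells had 1 island of 14.6 kb over S100A6, S100A5 and S100A4 and WT cells had separate islands of 7 kb and 2.6 kb. S100A6, or calcyclin, held 6.646 kb in KO cells, its whole region, and 4.326 kb in WT cells. S100A4, known for a role in cell motility, held 2.512 kb in KO cells and 1.912 kb in WT cells. The rest were close or lower in KO cells: S100A2, a p53 family target in epithelium, held 7.8 kb in each library, and S100A16 held 11.039 kb in KO cells and 11.26 kb in WT cells. S100A13, which acts in the release of growth factors, held 12.436 kb in KO cells and 13.174 kb in WT cells. S100A1, a calcium sensor of heart muscle, held 8.115 kb in KO cells and 8.314 kb in WT cells, and S100A14 held 3.67 kb in KO cells and 5.07 kb in WT cells. One gain and 0 losses of H3K4me3 among 54 members (1.85% and 0%) stand beside 4.1% and 2.04% of all genes, and 1 gain among the 40 small members (2.5%) beside 2.6% of small genes for gains and 1.42% for losses. Over the complex H3K4me3 covered 75.915 kb in KO cells and 68.315 kb in WT cells, a difference of 7.6 kb that turned to -2.296 kb after scaling to the same total length, when S100A5 no longer met the gain.

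H3R8me2a lay on the same S100 genes. Of the H3K4me3 bases of the complex, 80.8% in KO cells and 78.3% in WT cells were also under H3R8me2a, and no base was under both H3R8me2a and H3K27me3 in either library. H3R8me2a was at the promoters of 10 members (18.5%) in KO cells and 11 (20.4%) in WT cells, against 35.2% of all genes in KO cells and 27.5% in WT cells. S100A3, a hair cuticle protein gene, held 6.93 kb of H3R8me2a, its whole region, in both libraries and no H3K4me3. S100A10 held 15.945 kb in KO cells, again the whole region, and 11.81 kb in WT cells, whereas S100A11 held 10.019 kb in KO cells and 10.619 kb in WT cells. For the other 8 right-edge genes the values were equal or within 0.8 kb between libraries, from 6.646 kb in S100A6 to 16.374 kb in S100A13 in KO cells, against 6.646 kb to 16.774 kb in WT cells. Members had 0 H3R8me2a gains and 1 loss, beside gains in 20% and losses in 8.04% of all genes, and gains in 13.2% and losses in 2.32% of small genes. The loss was RPTN, which encodes repetin, with 0 kb in KO cells and 3.904 kb in WT cells, from an island of 12.6 kb that began 1.097 kb upstream of its start. H3R8me2a in the complex came to 105.925 kb in KO cells and 104.325 kb in WT cells, a ratio of 1.02 beside 1.61 for the genome, and 1.6 and 1.75 in the 1 Mb before and after it. The difference of 1.6 kb turned to -38.551 kb after scaling.

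**Figure D3:**
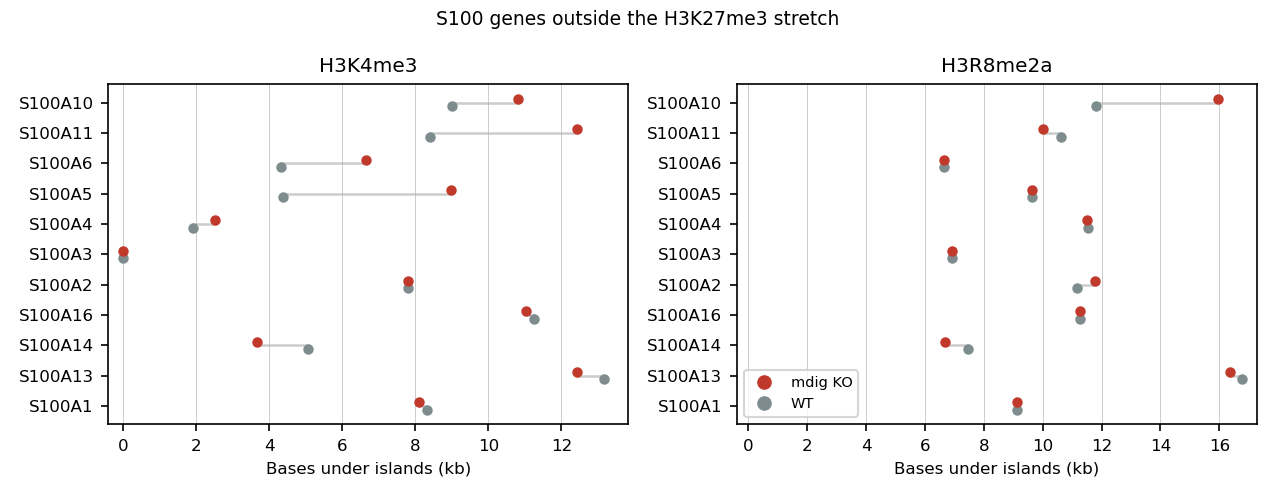
Bases under H3K4me3 and H3R8me2a islands in kb for the 11 S100 genes outside the H3K27me3 stretch, with mdig KO in red and WT in grey, 1 library each. S100A5 shows the widest H3K4me3 gap by ratio (8.978 kb in KO cells, 4.378 kb in WT cells), and the H3R8me2a points of most genes coincide.

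H3K9me3 islands in the complex numbered 21 in KO cells and 8 in WT cells. They covered 137.6 kb (8.34%) in KO cells and 44 kb (2.67%) in WT cells, a ratio of 3.13 beside 3.6 for chromosome 1 and 3.69 for the genome, and after scaling to the same total length the KO minus WT difference was -6.749 kb. Of the WT bases 97.3% were also covered in KO cells. Members had 6 gains (11.1%) and 0 losses, beside 27.6% and 0.874% of all genes, and the small members had 4 gains (10%), beside 13.9% gains and 0.0346% losses among small genes. After scaling, the split of members was 2 gains, RPTN and S100A7, and 3 losses, HRNR, FLG and FLG2. The factor came from genome totals of 194875.2 kb in KO cells and 52756.4 kb in WT cells. A gene with about equal bases in both libraries can thus be called a loss. Unscaled, FLG held 12.4 kb in KO cells and 11.2 kb in WT cells, HRNR 3.4 kb and 3 kb, and FLG2 7.4 kb and 7.6 kb. The 3 losses therefore do not show that islands went away. At promoters H3K9me3 was at 6 members (11.1%) in KO cells and 0 in WT cells, against 11.1% of all genes in KO cells and 2.86% in WT cells.

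The filaggrin-type genes, which join an S100 domain to long repeats, held most H3K9me3 among the members in WT cells. TCHH, HRNR, FLG and FLG2 had it in WT cells, and no other of the 54 members did. RPTN joined them in KO cells, and CRNN, the cornulin gene of the oesophagus, had none but held 4.021 kb of H3K27me3 in KO cells and 6.621 kb in WT cells. In these genes the repeats are encoded by the last exon, exon 3, and in WT cells the islands over TCHH, FLG and FLG2 covered exon 3 and none of the rest of the body. In KO cells they reached further. In FLG 95.5% of exon 3 was under H3K9me3 in KO cells and 89% in WT cells, while the rest of the body was covered over 3.59% in KO cells and 0% in WT cells. In FLG2 77.7% of exon 3 was covered in KO cells and 85.3% in WT cells, and 20.2% of the rest in KO cells and 0% in WT cells. In HRNR, the hornerin gene, 33.6% of exon 3 was covered in KO cells and 31.5% in WT cells, and 8.66% of the rest in KO cells and 1.26% in WT cells. Over whole regions FLG held 12.4 kb in KO cells and 11.2 kb in WT cells, HRNR 3.4 kb in KO cells and 3 kb in WT cells, and FLG2 7.4 kb in KO cells and 7.6 kb in WT cells. These 3 and RPTN also made up the longest gap of the H3K27me3 stretch, 228.6 kb in KO cells and 249.8 kb in WT cells.

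TCHH, which encodes trichohyalin of the hair root sheath, and RPTN had the filaggrin-type gains. TCHH held 7 kb of H3K9me3 in KO cells and 2.4 kb in WT cells, with 96.9% of exon 3 covered in KO cells and 35.5% in WT cells, and 18.9% of the rest in KO cells and 0% in WT cells. RPTN held 5.93 kb in KO cells and 0 kb in WT cells, and its body was covered from end to end in KO cells, by an island of 14.6 kb that ran past the gene. TCHH was also the one member with H3K4me3 outside the S100 genes. Its H3K4me3 came to 7.2 kb in KO cells and 6.2 kb in WT cells, in an island that ended 1.52 kb from the start in KO cells and 2.12 kb from it in WT cells, so it was within 2 kb in KO cells alone. H3K27me3 covered the whole TCHH region, 14.128 kb, in both libraries. The 6.8 kb of the complex under both H3K4me3 and H3K9me3 in KO cells and the 2.4 kb in WT cells were both within this gene.

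Repeated sequence was counted because reads of identical stretches cannot be placed. In the complex 1.95% of 75-base words occurred more than once, beside 3.12% of those in H3K9me3 islands of KO cells and 6.39% in those of WT cells, and for H3K27me3 islands the share was 0.687% in KO cells and 0.83% in WT cells. Within exon 3 the repeated share was 43.1% in HRNR, 20.4% in FLG, 2.06% in FLG2, 1.6% in TCHH and 0% in RPTN and CRNN. Among the other members with H3K9me3 gains, the share of words in the whole region found more than once in the complex was 8.89% for S100A7, 1.27% for IVL and 0% for S100A12 and LCE3A. Copies elsewhere in the genome were not counted, so a share of 0% does not show that every read could be placed. The part of read placement in these islands was not tested.

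**Figure D4:**
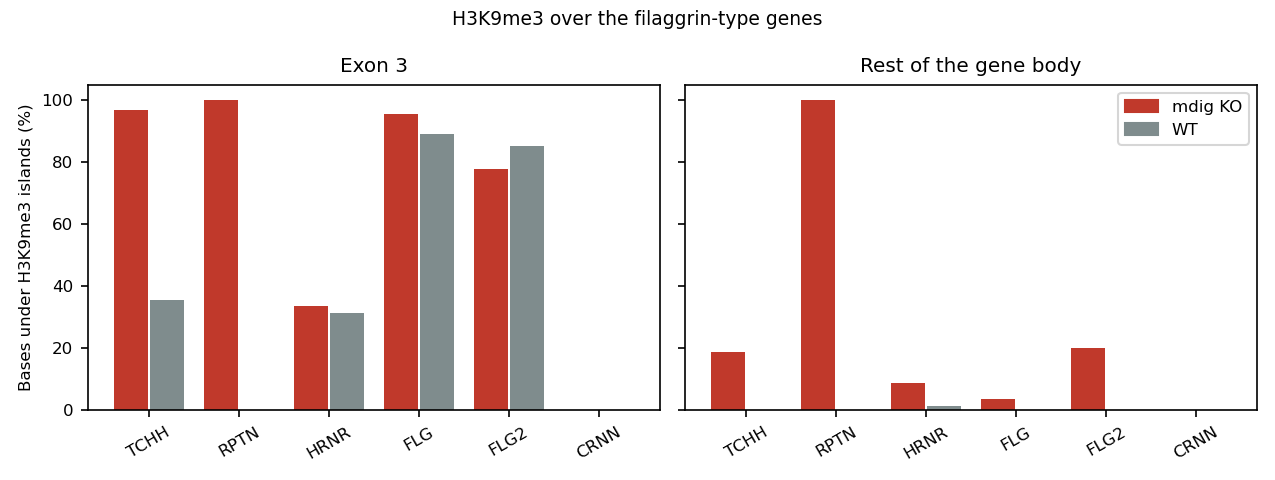
Share of exon 3 (left) and of the rest of the gene body (right) under H3K9me3 islands, in percent, for the 6 filaggrin-type genes, with mdig KO in red and WT in grey, 1 library each. In WT cells the bars stand over exon 3 of TCHH, HRNR, FLG and FLG2, and in KO cells TCHH and RPTN reach 96.9% and 100% of exon 3.

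The other H3K9me3 gains, like TCHH and RPTN, lay between the first and last base of the H3K27me3 stretch. In KO cells S100A7 held 4.581 kb, IVL 3.562 kb, S100A12 1.697 kb and LCE3A 1.291 kb, and in WT cells each of these held 0 kb. Islands covered the start of IVL in KO cells, with the nearest WT island 428.422 kb away. Of 13 KO islands of H3K9me3 with no WT island under them, 9 lay wholly or in part on bases that H3K27me3 covered in both libraries, and 4 lay on none. The bases under both marks came to 65.4 kb in KO cells, 47.5% of the H3K9me3, against 2.8 kb in WT cells, 6.36% of it. For comparison, H3K27me3 covered 50.9% of the whole complex in KO cells and 32.9% in WT cells. The 47.5% in KO cells was thus close to that coverage.

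Promoter composition was set beside the marks of WT cells. By the canonical start in WT cells, 10 members had H3K4me3, 27 had H3K27me3 without H3K4me3 and 17 had neither. The observed over expected CpG ratio in the 1000 bases around the start had a median of 0.12 over the members and 0.73 over all genes, and was at least 0.6 in 1 member, S100A10 at 0.78, with S100A11 just under 0.6, against 66.6% of all genes. The 10 members with H3K4me3 had a median of 0.21 (0.11 to 0.78), beside 0.11 for the 27 with H3K27me3. The 10 were all S100 genes and most of the 27 came from other families, so mark and family cannot be told apart here. Within the S100 genes the ratios overlapped, with 0.08 (S100A7A) to 0.2 (S100A9) for those with H3K27me3 in WT cells. TATAAA at 28 to 33 bases was in 2 of the 10 and in 18 of the 27 (66.7%). The 7 members with H3K27me3 at the canonical start in KO cells alone and the 10 with neither mark in either library both had a median ratio of 0.11.

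**Figure D5:**
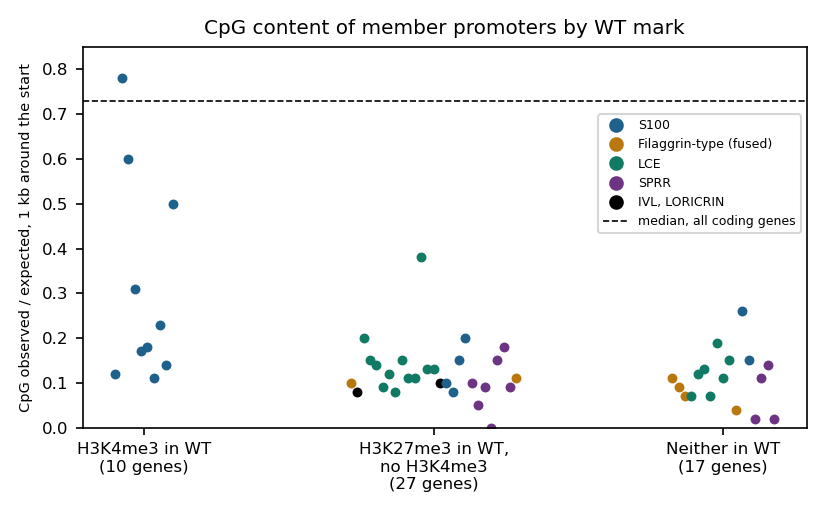
CpG observed over expected ratio in 1 kb around the canonical start for each member, grouped by the mark within 2 kb in the WT library and coloured by family, with the median of all coding genes, 0.73, as a dashed line. Members with H3K4me3 range from 0.11 to 0.78, and those with H3K27me3 or neither lie at 0.38 or below.

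Of 10 other genes listed in or near the interval, 1 had an H3K27me3 gain and 1 an H3K9me3 gain, beside 6.49% and 27.6% of all genes. There was also 1 H3K4me3 loss, beside 2.04% of all genes, and 1 H3R8me2a gain, in THEM5, beside 20%. TCHHL1, a filaggrin-type relative beside TCHH, held 9.584 kb of H3K27me3 in KO cells and 0 kb in WT cells. CRCT1, a cysteine-rich gene beside LCE5A, held no H3K4me3 in KO cells and 2.284 kb in WT cells, from the one H3K4me3 island of the complex that lay in WT cells alone, and its H3K27me3 was 6.527 kb in KO cells and 5.284 kb in WT cells. PGLYRP3, a peptidoglycan recognition gene, held 5 kb of H3K9me3 in KO cells and 0 kb in WT cells. The 4 S100 genes elsewhere in the genome (S100B, S100G, S100P and S100Z) had no H3K4me3, H3K27me3 or H3R8me2a in either library, and S100B held 6.805 kb of H3K9me3 in KO cells and 0.884 kb in WT cells.

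Partners of the envelope proteins elsewhere in the genome, such as desmosome proteins and transglutaminases, were counted too. Among 15 genes there was 1 H3K27me3 gain, CSTA, which encodes the protease inhibitor cystatin A, with 14.2 kb in KO cells and 5.8 kb in WT cells, beside a gain in 6.49% of all genes. There were 5 H3K9me3 gains, beside 27.6% of all genes, among them TGM3, with 37.079 kb in KO cells and 0 kb in WT cells. H3K4me3 was at 5 of the 15 promoters in each library. Of 16 transcription factors that govern epidermal differentiation, 11 had H3K4me3 at the promoter in KO cells and 12 in WT cells, against 64.4% of all genes in KO cells and 64.7% in WT cells, MAF being the exception with 0 kb in KO cells and 4.2 kb in WT cells. Of the same 16 genes 4 had an H3K9me3 gain, beside 27.6% of all genes, and 5 had an H3R8me2a gain and 1 a loss, beside 20% and 8.04%. GRHL3, a grainyhead factor of the barrier, had the one H3K27me3 gain of these, 68.6 kb in KO cells and 26.6 kb in WT cells, and TP63, the master regulator of stratified epithelia, held no H3K4me3 or H3K27me3 in either library and 26.4 kb of H3K9me3 in KO cells, against 6.2 kb in WT cells. Checked against markers, H3K4me3 was at the promoters of 4 of 7 epithelial genes, 1 of 4 keratinocyte genes, 4 of 5 mesenchymal genes, 1 of 5 leukocyte genes and 0 of 3 endothelial genes, the same counts in KO and WT cells. The epithelial genes with it were EPCAM, CDH1, KRT8 and KRT18, and KRT5 and KRT19 had none.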

How the data were processed

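Chromatin of BEAS-2B cells was sequenced after immunoprecipitation in 8 libraries, with 1 WT input. The authors mapped their 75-nt reads with BWA (version not given in the sources used here) to hg19, extended them to 200 bp and down-sampled each library to the smallest. The submitters' processing notes name SICER 1.1. The deposited values are island positions per library, on a grid of 200 bp, in no unit of signal, so a change of island length cannot be told apart from a change of calling.

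Island bases were summed per gene (GENCODE 44 mapped to GRCh37, 1 gene per symbol) with Python 3.11.15 and numpy 2.4.6, and 432 member values were counted again with bedtools 2.31.1, of which 0 differed. The code was tested on simulated islands. Sequences came from GRCh37, and figures from matplotlib 3.10.9. Values in both libraries are given for each member with a gain, a loss or H3K4me3 at its promoter, and for some others as examples. Other genes come from fixed lists. Members and lists were chosen with earlier results of these data known. Alternatives tried were scaling of the libraries, leaving out islands under 1 kb, merging of islands up to 1 kb apart, a factor of 1.5, other gene regions, other limits of the complex and promoters of 1 kb or 5 kb. PECAM1 was not in the annotation used. RNA-seq and H4K20me3 were not analysed here.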

Additional observations from a re-analysis of the deposited data

How the results depend on the processing

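Scaling both libraries to the same total length reversed the sign of 3 of the 4 differences over the complex. The H3K4me3 gains among members were 1 as reported, 2 with a factor of 1.5 and 0 after scaling, and the losses 0 as reported and 1 with 5 kb on both sides of the start (LCE5A). H3K27me3 gains numbered 11, and 7 over the gene body alone. H3K9me3 gains and losses numbered 6 and 0, and 2 and 3 after scaling, where the 3 losses follow from the factor applied to KO bases. The H3R8me2a loss of RPTN was 1 as reported and 0 over the gene body alone. No member had H3K9me3 in WT cells within 2 kb of the start, and 2 had it within 5 kb, while in KO cells 6 had it within 2 kb, 4 within 1 kb and 9 within 5 kb. Over the complex, the KO minus WT difference of H3K4me3 was 7.6 kb, 19.6 kb with 100 kb added on each side, 0.2 kb from the end of S100A11 to the start of S100A9, and -2.296 kb after scaling. For H3K27me3 it was 297.4 kb, 259.6 kb over the shorter interval, and 87.304 kb after scaling. For H3K9me3 it was 93.6 kb, 71.8 kb over the shorter interval and -6.749 kb after scaling. For H3R8me2a it was 1.6 kb, 34.915 kb with 100 kb added, 0 kb with islands within 1 kb merged, -12.6 kb over the shorter interval and -38.551 kb after scaling. Each genotype had 1 library per mark, so nothing could be left out, and no paired analysis was possible because the result comes from no test. The islands carry no depth, so an absent island does not show an absent mark.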
